A study of Homo sapiens with 20 samples.

Results

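The data described here are 4 RNA-seq libraries of A549 cells that received no TGFβ: 2 labelled siKLF10, made after an siRNA against KLF10, and 2 labelled siCont, made after a control siRNA. They were chosen by their labels alone, and they are 4 of the 20 libraries of the series. A549 is a human lung adenocarcinoma line. The labels also tag it as immortalized with SV40 large T antigen, a tag that was not checked here. The other A549 libraries, 2 labelled TGFb and 2 labelled siKLF10+TGFb, came from cells given TGFβ at 5 ng/ml for 72 hours. A second line, Panc1, from a human pancreatic carcinoma, was used with 3 libraries in each of the same 4 groups. The 6 Panc1 libraries without TGFβ and the 4 A549 libraries under TGFβ serve below only for comparison. Whether the siRNA was a single sequence or a pool, how long after transfection RNA was taken, and whether libraries of a group came from separate cultures is not stated in any source used here. The p-values therefore reflect library-to-library spread alone, and that spread may be purely technical.

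KLF10 encodes a zinc-finger transcription factor of the KLF and SP family, known as an early TGFβ response gene that binds GC-rich promoter sequences. An siRNA enters the Argonaute complex, which cleaves messages that pair with its guide strand along its whole length. Guides are also known to lower other messages whose 3′ untranslated region (3′ UTR) pairs only with the short stretch near the guide's 5′ end called the seed, as a microRNA does. The comparison of siKLF10 with siCont asks which transcripts differ in A549 cells after this siRNA when no TGFβ is added.

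Gene counts summed to 6935026 to 13459688 per library over 23368 genes, of which 5245 had no count in any of the 4. A floor of 3 counts corresponds to 0.223 to 0.433 CPM (counts scaled to a common library size), a limit that covers counting error only. Of the 12 markers fixed for A549 cells, which include the keratins KRT8 and KRT18 and the detoxifying enzymes AKR1B10 and ALDH1A1, none was at 0, and their plain CPM summed to 35450 and 35580 in siCont and to 29240 and 28410 in siKLF10. Of these markers 7 were called lower (AKR1B10, ALDH1A1, ALDH3A1, FGB, FGA, NQO1 and CYP24A1) and 1 higher (TXNRD1). CDKN2A and CDKN2B, which lie in a locus known to be deleted in A549, had at most 2 counts in every library, while MTAP, the other gene listed for that locus, had 60 to 123 counts. The markers of lung alveolar cells summed to 5.12 to 10.2 CPM, with SFTPB and AGER at 0. The sums were 0.144 to 0.372 CPM for 7 markers of pancreatic cells, 1.55 to 4.61 CPM for 8 of fibroblasts, 0.273 to 0.794 CPM for 5 of endothelial cells and 4.76 to 8.36 CPM for 6 of basal epithelial cells. Blood cell markers summed to 33.1 and 36.1 CPM in siCont and to 19.1 and 20.2 CPM in siKLF10, with CD3E among those at 0 and CD68, a lysosomal protein, the single member called lower. SFTPD was the single alveolar marker called (lower) and TP63 the single basal marker (higher). The part of other cells in the results below was not tested.

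The targeted message itself did not pass the test. KLF10 stood at 110.3 and 106.8 CPM in the siCont libraries (A, then B, here and below) and at 101.8 and 108.7 CPM in the siKLF10 libraries (TMM-scaled CPM, as everywhere below unless plain CPM are named). The ranges of the groups overlapped, and the log2 fold change was −0.05 ± 0.0802 (SE), with an adjusted p = 0.743 (quasi-likelihood test of edgeR, Benjamini-Hochberg adjusted over all genes, as for every adjusted p below). The authors' deposited table for this comparison gives KLF10 a fold change of 0.980 and an adjusted p = 1. Under TGFβ KLF10 stood at 178.8 and 179.2 CPM in the TGFb libraries and at 150.7 and 142.3 CPM in siKLF10+TGFb, and it was called lower there (log2 −0.29 ± 0.0779, adjusted p = 0.00775). The difference of the effect without and under TGFβ did not pass the test (0.24, adjusted p = 0.228). In Panc1 the contrast without TGFβ gave −0.76 ± 0.0603, and the difference between the lines was 0.68 ± 0.0996 (adjusted p = 8.08e-06). The libraries are therefore called by their labels, and each direction below is that of the library labelled siKLF10 against the library labelled siCont.

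Over all genes, 2758 of 14124 genes tested (19.5%) were called at an adjusted p under 0.05. Of these, 1351 (9.57%) were higher and 1407 (9.96%) lower in the libraries labelled siKLF10, and 195 (1.38%) rose and 208 (1.47%) fell at least 2-fold. The median log2 fold change over all genes was 0.00. Each count rests on all 4 libraries: with any 1 of them left out, 1326 to 1638 genes were called, and DESeq2 called 1673. With 2 libraries a group, each left-out library leaves a lone sample that is assumed to vary like the other groups.

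**Figure D1:**
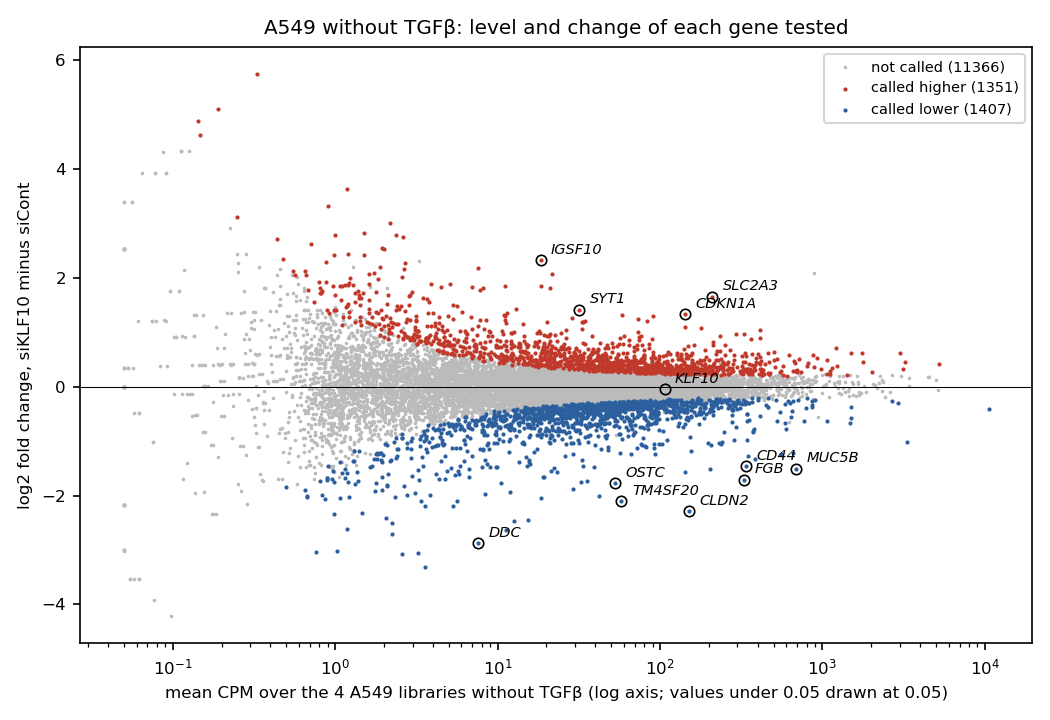
Log2 fold change (siKLF10 minus siCont, vertical axis) against the mean level in CPM (horizontal log axis) for each of the 14124 genes tested in A549 without TGFβ. Red points are the 1351 genes called higher and blue points the 1407 called lower; KLF10 lies near the zero line at −0.05, while the circled DDC, CLDN2, TM4SF20 and MUC5B lie at the lower edge of the cloud and SLC2A3 and IGSF10 at its upper edge.

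Several of the 15 largest falls were of genes known from liver, gut or secretory epithelia, such as BAAT, APOH, VIL1 and FCGBP, and others were not. DDC, which encodes the decarboxylase that makes dopamine and serotonin, measured 13.4 and 13.5 CPM in siCont and 1.82 and 1.81 CPM in siKLF10. It fell 7.35-fold (log2 −2.88 ± 0.221, adjusted p = 8.59e-09), the largest fall among called genes that averaged at least 5 CPM. In bulk RNA, fewer cells with a transcript and less of it per cell cannot be told apart.

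Transporters and junction proteins of absorptive epithelia were among these falls. SLC23A1, a sodium-dependent vitamin C transporter, went from 18.8 and 19.96 CPM to 2.61 and 3.91 CPM (6.17-fold, log2 −2.63 ± 0.212, adjusted p = 1.68e-08). CLDN2, a claudin that forms cation-permeable tight junctions, went from 240.4 and 258.4 CPM to 55.3 and 46.2 CPM (4.88-fold, log2 −2.29 ± 0.147, adjusted p = 2.0e-06). TM4SF20, a tetraspan membrane protein, went from 95.8 and 92.4 CPM to 22.2 and 21.4 CPM (4.31-fold). In each of these genes the groups lay apart, as the rule for choosing them required, and by more than the spread within a group. VIL1, the villin of brush-border microvilli, went from 16.8 and 15.8 CPM to 4.78 and 4.75 CPM (log2 −1.77 ± 0.382, adjusted p = 0.0156). DESeq2 did not call it (adjusted p = 0.4), and neither did edgeR without any 1 of the 4 libraries (adjusted p = 0.102 to 0.142), although the value stayed between −1.72 and −1.81.

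Liver-type enzymes and plasma proteins fell as well. BAAT, the enzyme that joins bile acids to glycine or taurine, went from 19.96 and 23.0 CPM to 4.08 and 3.49 CPM (5.56-fold). FGL1, a fibrinogen-like protein secreted by hepatocytes, went from 65.1 and 69.6 CPM to 15.5 and 18.3 CPM (4.02-fold). APOH, the plasma protein beta-2-glycoprotein, went from 39.8 and 52.1 CPM to 11.5 and 13.7 CPM (3.68-fold). ITIH2, a heavy chain of the inter-alpha-trypsin inhibitor, went from 18.8 and 18.7 CPM to 4.86 and 5.02 CPM (3.80-fold). The adjusted p-values of these genes ran from 1.14e-08 (APOH) to 5.06e-06 (FGL1).

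The rest of the 15 largest falls were of mixed function. FCGBP, a mucus-associated IgG Fc binding protein, went from 33.0 and 26.3 CPM to 6.43 and 8.23 CPM. PDZK1IP1, a small membrane protein of proximal tubule and carcinomas, went from 8.93 and 8.67 CPM to 2.34 and 1.26 CPM, and TFEC, a transcription factor related to MITF, from 7.76 and 10.4 CPM to 1.65 and 2.79 CPM. NEB, which encodes the giant muscle protein nebulin, went from 11.1 and 15.6 CPM to 3.21 and 3.63 CPM, and DCDC5 from 23.7 and 28.1 CPM to 3.99 and 5.86 CPM. OSTC, a subunit of the complex that glycosylates proteins in the endoplasmic reticulum, went from 83.7 and 80.4 CPM to 24.2 and 23.9 CPM (log2 −1.77 ± 0.106, adjusted p = 3.94e-10). OSTC was also lower in the other comparisons below.

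The 15 largest rises were of mixed function. IGSF10, an immunoglobulin superfamily gene, measured 5.73 and 6.39 CPM in siCont and 28.1 and 33.4 CPM in siKLF10 (5.04-fold, log2 2.33 ± 0.16, adjusted p = 2.11e-09). SLC2A3, the high-affinity glucose transporter GLUT3, was the most abundant of the 15 and went from 98.8 and 103.3 CPM to 317.6 and 320.6 CPM (3.16-fold, log2 1.66 ± 0.0752, adjusted p = 8.79e-12). GATSL3, which encodes an arginine sensor of the mTORC1 pathway, went from 7.84 and 8.93 CPM to 33.9 and 36.4 CPM (4.19-fold). In all 15 the libraries of the groups were apart, which the rule for choosing them required.

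Several of these rises are genes best known from neurons. CACNA1G, a T-type calcium channel, went from 9.58 and 6.22 CPM to 29.4 and 28.8 CPM, and CACNG7, an auxiliary subunit, from 9.80 and 8.58 CPM to 32.5 and 32.8 CPM. SYT1, the calcium sensor of synaptic vesicle release, went from 17.9 and 16.5 CPM to 45.2 and 47.5 CPM (log2 1.42 ± 0.126, adjusted p = 6.86e-08). The kinesins KIF5C and KIF21B went from 3.92 and 3.06 to 11.98 and 12.3 CPM and from 6.89 and 7.27 to 20.1 and 17.6 CPM. DNER, a neuronal Notch ligand, and CADM2, a synaptic adhesion molecule, rose 3.70-fold and 3.62-fold. No list of neuronal genes was among those counted here, so these names describe single genes.

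Cell-surface, matrix and other genes completed the largest rises. ITGA4, the alpha-4 integrin chain, went from 3.628 and 3.502 CPM to 11.98 and 13.4 CPM, and EDIL3, a secreted integrin ligand, from 3.77 and 2.19 CPM to 9.99 and 12.003 CPM. GRHL3, a transcription factor of surface epithelium, went from 2.98 and 2.36 CPM to 11.3 and 13.5 CPM (4.54-fold). The bicarbonate transporter SLC4A8 rose 2.85-fold and the paralemmin PALM3 2.79-fold. All of these calls held without any 1 of the 4 libraries and with DESeq2.

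**Figure D2:**
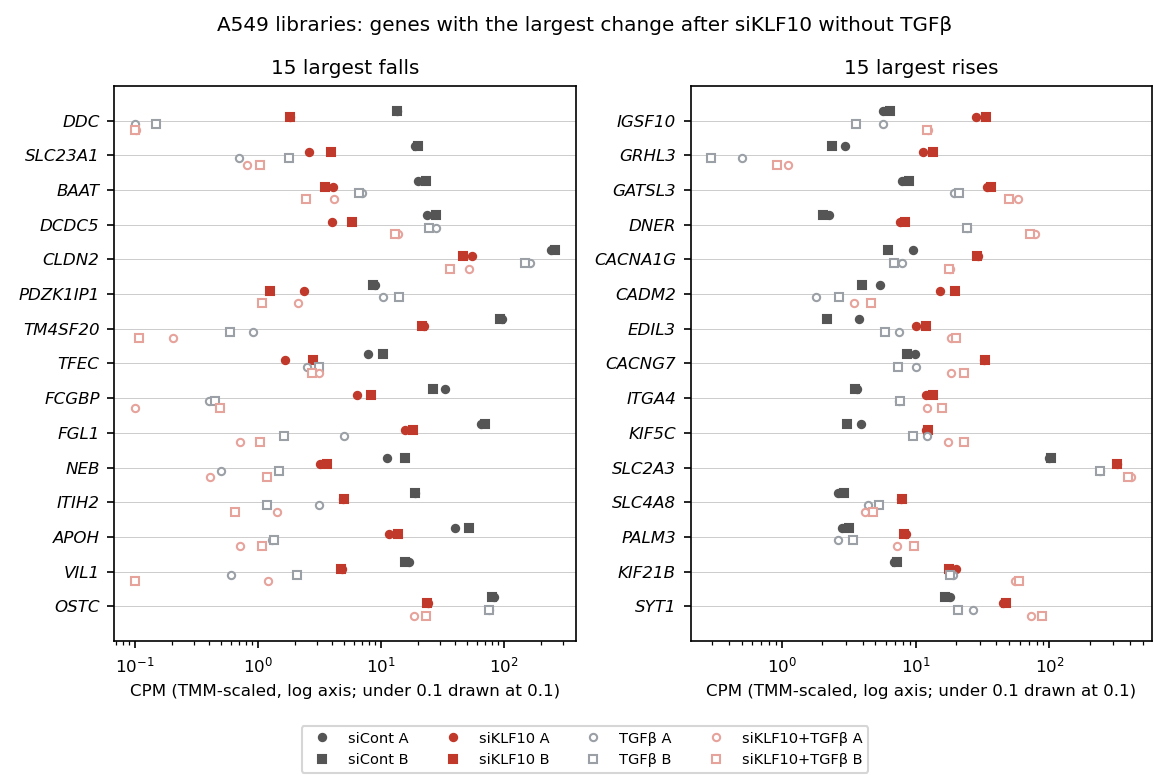
Level of the 15 largest falls (left) and 15 largest rises (right) in each of the 8 A549 libraries, in TMM-scaled CPM on a log axis; filled symbols are libraries without TGFβ, open symbols libraries under TGFβ, circles library A and squares library B. The filled dark and red symbols are apart for all 30 genes, which the rule for choosing them required. DDC, TM4SF20, FCGBP and VIL1 stand under 3 CPM in the libraries under TGFβ, while OSTC and CLDN2 keep the same order of groups there.

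Genes of the epithelial-to-mesenchymal transition, in which junctional cells take on migratory features, moved in both directions. SNAI1, a repressor of CDH1, rose from 6.10 and 4.03 CPM to 9.47 and 10.5 CPM (log2 0.94 ± 0.186, adjusted p = 0.00103). CDH1, which encodes E-cadherin, stood at 320.2 and 324.4 CPM in siCont and at 251.5 and 269.9 CPM in siKLF10 (log2 −0.31 ± 0.0793, adjusted p = 0.00878). CDH2, N-cadherin, stood at 58.0 and 52.2 CPM and at 72.5 and 67.7 CPM (log2 0.35 ± 0.0882, adjusted p = 0.00751). The calls of both cadherins were lost in some of the fits that left out 1 library, in which fewer genes were called over all. That of CDH1 was lost without siCont A, siCont B or siKLF10 A (adjusted p = 0.0683, 0.0895 and 0.118), and that of CDH2 without siCont B or siKLF10 A (adjusted p = 0.142 and 0.124).

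Other genes of this programme went the other way or did not pass the test. VIM, the intermediate filament vimentin, fell from 747.1 and 752.4 CPM to 548.8 and 556.9 CPM (log2 −0.44 ± 0.0814, adjusted p = 0.000576). FN1, the matrix glycoprotein fibronectin, fell from 1257 and 1327 CPM to 801.6 and 868.0 CPM (log2 −0.63 ± 0.0846, adjusted p = 1.77e-05). SNAI2 stood at 0.798 and 0.613 against 1.13 and 1.26 CPM (adjusted p = 0.274), with counts near the floor. ZEB1, another CDH1 repressor, stood at 21.6 and 23.5 against 22.3 and 24.1 CPM (adjusted p = 0.869), and SMAD7, an inhibitor of TGFβ signalling, at 25.7 and 27.6 against 31.0 and 30.7 CPM (adjusted p = 0.149).

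**Figure D3:**
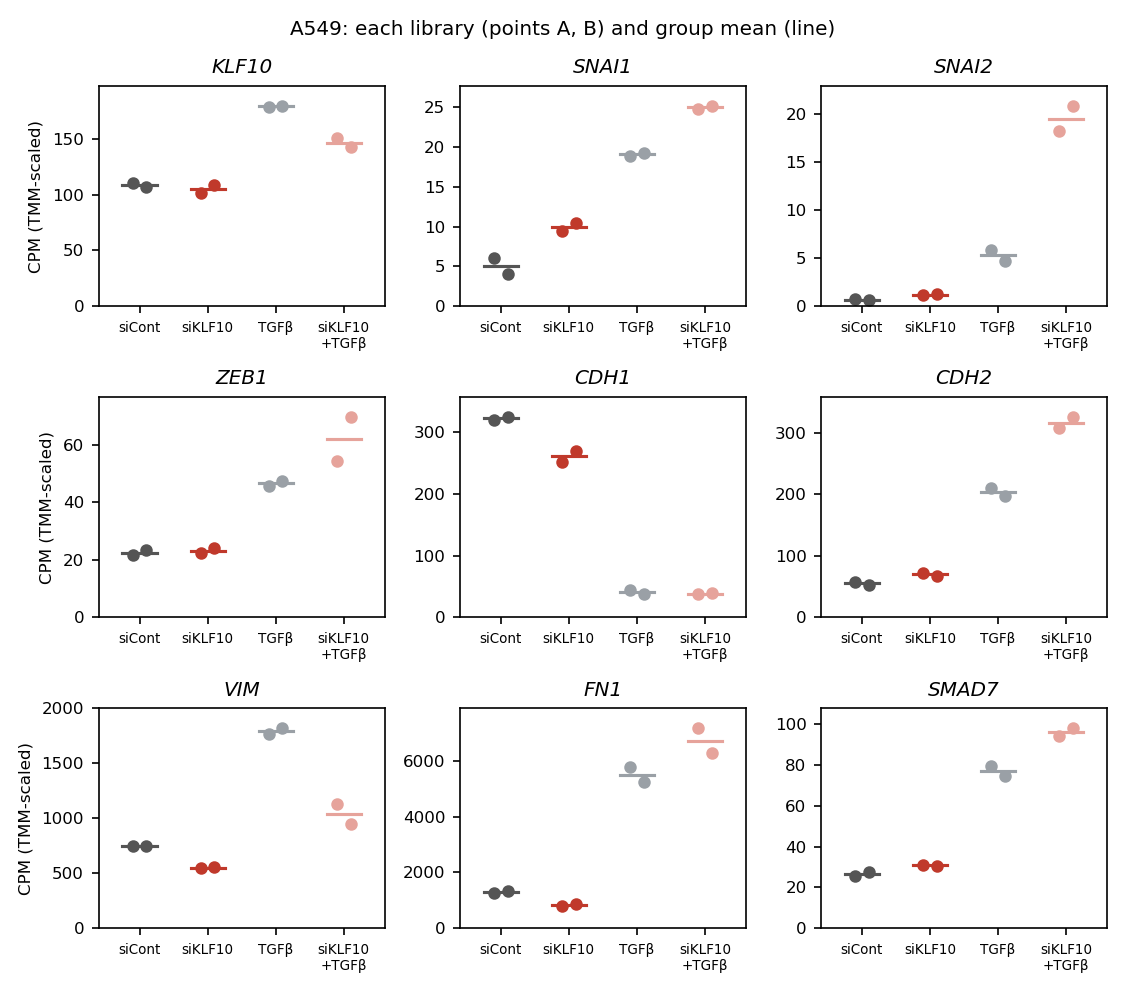
TMM-scaled CPM of 9 genes named whether or not they were called, in each A549 library (points) with the group mean (line), n = 2 libraries a group; axes start at 0. KLF10 overlaps between siCont and siKLF10 without TGFβ, SNAI1 and CDH2 lie higher in siKLF10, and VIM and FN1 lie lower.

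Over all genes 9.57% were higher and 9.96% lower, the shares to set beside each list count below. Fewer genes were called over all in fits that left out 1 library, so these shares do not apply to list counts from those fits. No share over all genes stands beside those counts here, so by themselves they do not show that a list stands out. Among 33 gene lists, complement, coagulation and other plasma protein genes stood out by the number lower. Of 33 tested members 17 were called lower and 5 higher, with a median log2 fold change of −0.35 against 0.00 over all genes and 9.96% of all genes lower. FGB and FGA, fibrinogen chains, fell from 478.2 and 531.0 CPM to 151.9 and 157.4 CPM and from 520.1 and 577.2 CPM to 225.3 and 212.0 CPM (log2 −1.71 ± 0.0849 and −1.33 ± 0.0911). C5 and C3, the complement components, fell from 283.6 and 315.5 CPM to 97.5 and 112.5 CPM and from 452.5 and 452.5 CPM to 232.5 and 227.8 CPM. Without any 1 of the 4 libraries 13 to 16 members were lower and 4 to 6 higher. FGA and FGB are also among the 12 A549 markers described above.

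Mucin and secretory epithelium genes had 6 of 14 lower and 1 higher (median −0.52). MUC5B, a gel-forming airway mucin, fell from 1015 and 1016 CPM to 324.0 and 392.3 CPM (log2 −1.51 ± 0.0912, adjusted p = 7.54e-10). SPDEF, a transcription factor of goblet cells, fell from 30.8 and 27.3 CPM to 8.51 and 10.2 CPM, AGR2, a disulfide isomerase needed for mucin folding, fell 1.79-fold, and LCN2, the iron-scavenging lipocalin, fell 2.56-fold. Without any 1 library 5 or 6 members were lower. XBP1, a secretory cell and unfolded protein response factor from another list, fell from 284.0 and 277.9 CPM to 136.3 and 130.4 CPM, while that list had 4 of 25 lower and 3 higher (1 to 3 and 1 or 2 without any 1 library).

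A transcription factor known to drive liver and gut genes was looked up after these falls had been seen. HNF4A, a nuclear receptor of hepatocytes and enterocytes, stood at 60.8 and 59.4 CPM in siCont and at 28.4 and 25.4 CPM in siKLF10 (log2 −1.15 ± 0.0986, adjusted p = 3.95e-08). The libraries of the groups were apart. Under TGFβ it was not called: HNF4A stood at 37.8 and 38.2 CPM in the TGFb libraries and at 42.3 and 42.0 CPM in siKLF10+TGFb (adjusted p = 0.268). A call without TGFβ and none under it do not by themselves show a difference in effect. Whether HNF4A had a part in any of the falls was not tested.

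Of 30 tested p53 targets 12 were called higher (40.0%, against 9.57% of all genes), 0 lower and 18 were not called (median 0.26), and without any 1 library 10 to 12 were higher and 0 lower. CDKN1A, the cyclin-dependent kinase inhibitor p21, rose from 82.1 and 78.7 CPM to 214.5 and 191.4 CPM (2.53-fold, log2 1.34 ± 0.0827, adjusted p = 5.19e-10). TNFRSF10B, a death receptor for TRAIL, rose from 261.0 and 255.2 CPM to 477.1 and 466.3 CPM, and the pro-apoptotic BAX from 127.0 and 113.4 CPM to 183.5 and 172.5 CPM. BTG2, an antiproliferative cofactor, rose 1.91-fold. Of 40 DNA replication genes 3 were higher (7.5%) and 4 lower (10.0%), and of 40 mitosis genes 2 were higher (5%) and 3 lower (7.5%), shares near those of all genes (9.57% and 9.96%), with HMMR, a spindle protein, the lower gene of smallest adjusted p (1.63-fold).

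Amino acid response genes downstream of ATF4 had 14 of 36 higher and 4 lower (median 0.15), and 12 or 13 higher without any 1 library. SLC7A11, the cystine transporter, rose from 282.3 and 297.7 CPM to 521 and 561.5 CPM (log2 0.90 ± 0.0745). ASNS, which makes asparagine, rose 1.70-fold, CBS, an enzyme of cysteine synthesis, 1.93-fold, and DDIT4, an mTORC1 inhibitor, 1.46-fold. Of 38 hypoxia and glycolysis genes 11 were higher, 5 lower and 22 not called, led by SLC2A3 and by SLC2A1, the glucose transporter GLUT1 (165.5 and 159.0 against 303.1 and 315.9 CPM), while PFKFB3, a regulator of glycolysis, fell 1.54-fold. That count of rises was 5 to 6 without any 1 library. Of 29 immediate early genes 9 were higher, 0 lower and 20 not called (4 higher without siCont B or without siKLF10 A), among them DUSP5, an ERK phosphatase (2.31-fold), and IER2 (1.83-fold).

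Matrix genes had 13 of 37 members higher and 3 lower, and 11 higher and 0 lower without any 1 library. LAMB3, a laminin chain of epithelial basement membranes, rose from 123.4 and 115.7 CPM to 198.6 and 208.5 CPM (log2 0.77 ± 0.0759). FBN2, a fibrillin, rose 2.005-fold and COL5A2, a type V collagen chain, 1.53-fold. TGFβ pathway genes had 14 of 39 higher (35.9%) and 4 lower (10.3%), against 9.57% and 9.96% of all genes. Fewer of their rises were called without any 1 library. The receptor TGFBR1 rose 1.45-fold and the ligand TGFB2 1.39-fold, and IGFBP3, a secreted IGF carrier, fell 1.59-fold.

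Mesenchymal genes had 10 of 25 higher and 7 lower, which became 5 to 7 higher and 6 to 8 lower without any 1 library. CD44, a hyaluronan receptor, fell from 515.3 and 471.1 CPM to 190.2 and 168.3 CPM (log2 −1.46 ± 0.0877, adjusted p = 3.94e-10). TAGLN, an actin-binding protein of smooth muscle, fell from 49.1 and 46.7 CPM to 19.8 and 17.4 CPM. Integrins had 6 of 18 higher and 3 lower, and 2 to 5 higher and 2 lower without any 1 library. ITGB5 fell from 502.5 and 477.2 CPM to 204.9 and 199.6 CPM, ITGB6 went from 3.99 and 6.83 CPM to 0.868 and 1.81 CPM, and ITGA5, the fibronectin receptor chain, rose 1.33-fold.

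Receptors, WNT genes and metabolism gave single large changes in lists that were otherwise mixed. ERBB2 and ERBB3, receptor kinases, fell 1.72-fold and 1.60-fold while EGFR rose 1.41-fold. DKK1, a secreted WNT antagonist, fell from 915.6 and 929.6 CPM to 398.8 and 390.5 CPM (log2 −1.22 ± 0.0785). Its list had 4 of 33 higher and 4 lower (12.1% each), near the shares of all genes, with fewer rises without any 1 library. ALDH3A1, an aldehyde dehydrogenase, fell 2.34-fold in a list of NRF2 targets and detoxifying enzymes with 8 of 47 higher and 8 lower (7 or 8 and 4 to 6). ULK1, a kinase that starts autophagy, rose 2.14-fold in a list with 7 of 36 higher and 1 lower (2 to 5 and 1 or 2). NDUFAF3, a factor that assembles respiratory complex I, fell 3.35-fold. Its oxidative phosphorylation list had 4 of 38 lower (10.5%), near the 9.96% of all genes, and 1 higher (2.63%). Fewer members of that list were called without any 1 library.

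Of 35 interferon-stimulated genes 4 were higher (11.4%) and 6 lower (17.1%), against 9.57% and 9.96% of all genes. OAS1, a sensor of double-stranded RNA, was lower (1.46-fold) and HERC6 higher (1.66-fold). Fewer members of this list were called without any 1 library. Cholesterol genes had 3 of 29 higher (10.3%) and 4 lower (13.8%), near the shares of all genes, and fewer were called without any 1 library. Fatty acid synthesis genes had 4 of 17 called each way (2 to 4 higher and 3 lower), with ACLY, which makes cytosolic acetyl-CoA, lower 1.48-fold. Of 30 ribosomal protein genes 0 were called by edgeR in either direction, with a median of 0.02. In the KLF and SP family 2 of 19 were higher (10.5%), near the 9.57% of all genes, and 0 lower. The higher members were KLF2 (1.49-fold) and KLF11 (1.47-fold), and fewer were called without any 1 library. Of 17 genes of small RNA pathways 3 were higher and 1 lower (0 or 1 each without any 1 library), with EIF2C2, the Argonaute protein that cleaves siRNA targets, lower (37.2 and 33.3 against 26.7 and 24.0 CPM).

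**Figure D4:**
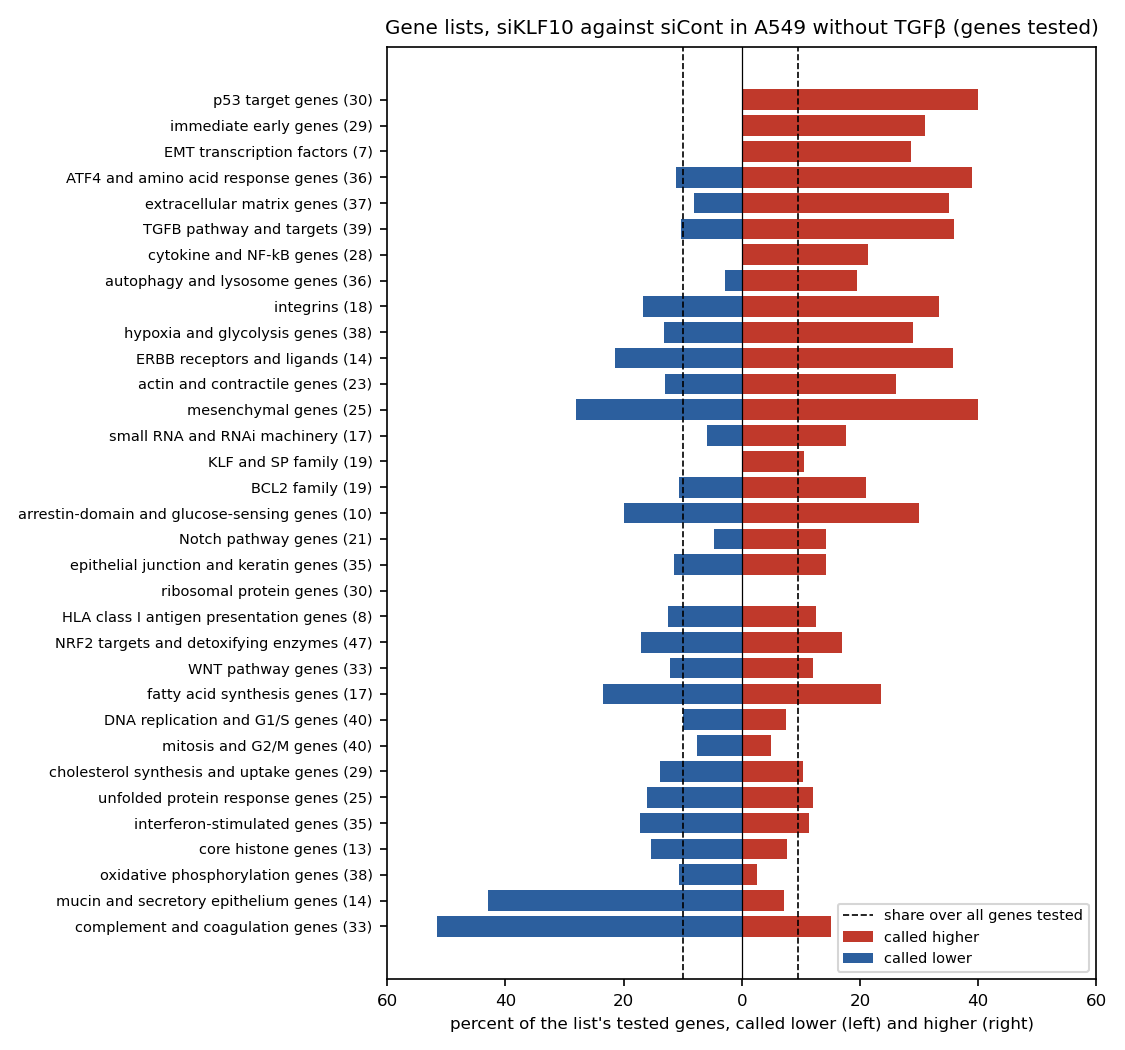
Percent of the tested genes of each of 33 lists called higher (red, right) or lower (blue, left) in siKLF10 against siCont, A549 without TGFβ; the number tested is in parentheses and dashed lines mark 9.57% and 9.96%, the shares over all genes tested. Complement and mucin genes extend farthest to the left, and p53 targets and immediate early genes extend to the right with 0 falls.

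Whether these differences also appear when the siRNA is given with TGFβ was read from the siKLF10+TGFb and TGFb libraries. These are separate from the 4 above. The titles of the TGFb libraries name no siRNA, so this contrast may also hold a difference in transfection, which was not tested. Under TGFβ 13.9% of genes were lower and 14.4% higher. Of the 1407 genes lower without TGFβ, 693 (49.3%) were lower and 48 (3.41%) higher under TGFβ, and of the 1351 higher genes 712 (52.7%) were higher and 36 (2.66%) lower. Across 14124 genes the effects correlated with r = 0.441, a description across genes that are not independent replicates. The siKLF10+TGFb pair stood apart from the other A549 pairs: its libraries differed by a chi-square of 11.4 per degree of freedom, against 2.22 to 2.97 in those pairs. Without siKLF10+TGFb A the shares were 51.8% and 53.7%, and without siKLF10+TGFb B 45.5% and 51.1%. Without TGFb A they were 33.8% and 36.6%, and without TGFb B 38.9% and 36.8%. The shares over all genes moved with them: 7.51% were lower and 7.96% higher without TGFb A, 8.58% and 8.31% without TGFb B, 18.0% and 19.4% without siKLF10+TGFb A, and 11.5% and 12.6% without siKLF10+TGFb B. The genes called in the opposite direction numbered 26 to 70 and 21 to 48 when 1 of these 4 libraries was left out.

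Of the 15 largest falls 8 were lower under TGFβ and 0 higher, and of the 15 largest rises 13 were higher and 0 lower. Without siKLF10+TGFb A or B these counts were 9 or 7 falls and 13 or 12 rises, and without TGFb A 5 falls. CLDN2 stood at 163.3 and 147.6 CPM in TGFb and at 51.5 and 36.1 CPM in siKLF10+TGFb (log2 −1.85 ± 0.147), and OSTC at 75.2 and 75.7 against 18.5 and 23.1 CPM (−1.84 ± 0.105). DDC was at or under 0.148 CPM in all 4 libraries under TGFβ, below the floor, and FCGBP at or under 0.488 CPM. MUC5B stood at 21.1 and 26.4 CPM in TGFb and at 3.04 and 2.71 CPM in siKLF10+TGFb, a called fall (log2 −3.05, adjusted p = 1.4e-10). For DDC and FCGBP, which were not called under TGFβ, a level near the floor leaves little room for a further fall, so the missing call does not show a difference in effect.

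The difference of the effect with and without TGFβ was tested itself, and 916 genes (6.49%) were called. This count is unstable, at 379 to 2685 when 1 of the 8 libraries was left out, the highest without siKLF10+TGFb A. CFI, a complement protease that cleaves C3b and C4b, was lower after siKLF10 without TGFβ (13.0 and 16.2 against 5.30 and 5.16 CPM) and higher under it (2.41 and 1.63 against 6.08 and 8.29 CPM), a difference of −3.28 ± 0.327 (adjusted p = 1.99e-06). H19, an imprinted non-coding RNA, went the opposite way, from 4.50 and 4.90 to 11.5 and 10.3 CPM without TGFβ and from 5.03 and 10.5 to 3.85 and 4.55 CPM under it (difference 2.02 ± 0.365, adjusted p = 0.00276). FN1 fell without TGFβ and rose under it (difference −0.92 ± 0.119, adjusted p = 5.83e-05).

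In Panc1, where the same siRNA label went with a lower KLF10 level, 18.3% of genes were lower and 17.3% higher. Of the 1207 A549 falls tested there 506 (41.9%) were lower and 126 (10.4%) higher, and of 1245 A549 rises 311 (25.0%) were higher and 191 (15.3%) lower. Over 12510 genes the effects in the lines correlated with r = 0.168. Few of the largest falls could be compared: 4 of the 15 largest falls passed its filter on low counts, as did 13 of the 15 largest rises. OSTC fell there too, from 45.4, 42.3 and 37.9 CPM to 14.4, 16.1 and 11.7 CPM (−1.57 ± 0.0998). C5 went in opposite directions, with 2.65, 3.55 and 2.40 CPM in Panc1 siCont and 10.8, 13.5 and 12.3 CPM in Panc1 siKLF10 (2.10 ± 0.161), a line difference of −3.65 ± 0.179 (adjusted p = 6.79e-16). In all, 2597 of 15058 genes (17.2%) differed in effect between the lines, and 1570 without A549 siKLF10 A or 1614 without A549 siCont B.

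The 3′ UTRs of the genes tested were also examined for short shared sequences, as a description with no test. No source used here gives the siRNA sequence. Every sequence of 7 bases in the 3′ UTRs of GENCODE v29 transcripts, matched by symbol for 12058 of the genes tested, was ranked by the Panc1 effect, and the lowest-ranked sequences were then read in A549. Ranked on the effect as fitted, the lowest 3 in Panc1 were GC-rich, and genes with them were not lower in A549. CCCAGCC, the lowest, ranked 15796 of 16197 in A549, counted from the lowest. The next, named CCAGCCC, ranked 16179, and the last of the 3, which reads CCCCAGC, ranked 16167.

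A second ranking, added after that result was seen, first fitted the effect on the length and GC content of the 3′ UTR. The lowest 3 in Panc1 then shared a core of 6 bases. The lowest was CCAATGA, which ranked 1 of 16197 in A549 without TGFβ and 2 under TGFβ. The second in Panc1, with the letters CCCAATG, ranked 6 without TGFβ and 3 under it. The last of the 3 in Panc1 was ACCAATG, with ranks of 2 and 1 in the same order. Without Panc1 siCont A the Panc1 ranks were 1, 3 and 2. Earlier work on these data had already singled out these sites, so the A549 ranks are only a description as well. Of 2370 mature human miRNAs in RefSeq 0 had a seed (bases 2 to 8) that pairs in full with any of these sites.

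In A549 without TGFβ, 357 of 1927 genes with any of these 3 sites were called lower (18.5%) and 175 higher (9.08%). Among 10131 genes with none, 900 were lower (8.88%) and 1067 higher (10.5%). The median log2 fold changes were −0.05 and 0.02. For the 626 genes with 2 or 3 of the kinds of site 159 were lower (25.4%) and the median was −0.10. Genes with a site had longer 3′ UTRs, with a median of 3008 against 1050 bases. Over all genes tested with a 3′ UTR on record, 1927 of 12058 had a site. Of the 15 largest falls 13 had a 3′ UTR on record, and 2 of these, SLC23A1 and OSTC, had a site. Of the 15 largest rises 14 had a 3′ UTR on record, and 2 of these, CACNG7 and SLC4A8, had a site. Both counts lie near the share over all genes. Whether pairing of the siRNA with these sites lowered any transcript was not tested.

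The sites are shown for 6 genes that fell at least 2-fold, chosen after their values were seen because all but SLC23A1 were also lower in the other comparisons. Each is given with 10 bases on either side and the site in capitals, written as DNA in the sense of the message, 5′ to 3′.
SLC23A1: agagacttgtACCAATGttatgctatg
OSTC: ctattgctatACCAATGAtgttgagtgg
NDUFAF3: tgccaggcttCCCAATGctttcactct
MREG: atttttatatACCAATGAgctttttggt
CD44: cgtcatttttACCAATGAttttcaggtg
ITGB5: agcttgttgtCCCAATGAaatactgaga
In OSTC, MREG, CD44 and ITGB5 an 8-base run holds a pair of the 3 kinds of site at once, and ITGB5 has another site that is not shown.

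NDUFAF3 went from 50.6 and 49.7 CPM to 14.2 and 15.9 CPM in A549 without TGFβ, with log2 fold changes of −1.74 ± 0.143 there, −2.55 ± 0.16 under TGFβ and −2.39 ± 0.144 in Panc1. MREG, a melanosome transport regulator, went from 29.9 and 27.7 CPM to 9.21 and 9.07 CPM, with −1.66, −1.21 and −1.75 in the same order. ITGB5 gave −1.28, −1.82 and −2.15, and CD44 −1.46, −0.87 and −1.33. AK4, a mitochondrial adenylate kinase with 3 sites in its 3′ UTR, went from 56.6 and 58.4 CPM to 19.7 and 21.8 CPM (−1.48, −1.33 and −1.62). All of these differences were called. Panc1 chose the sites, and the genes were chosen after their A549 values were seen, so the values of both lines are only a description. The 3′ UTR of KLF10 itself has 1 such site. SLC23A1 stood at 0.704 and 1.78 against 0.810 and 1.03 CPM under TGFβ and did not pass the Panc1 filter.

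**Figure D5:**
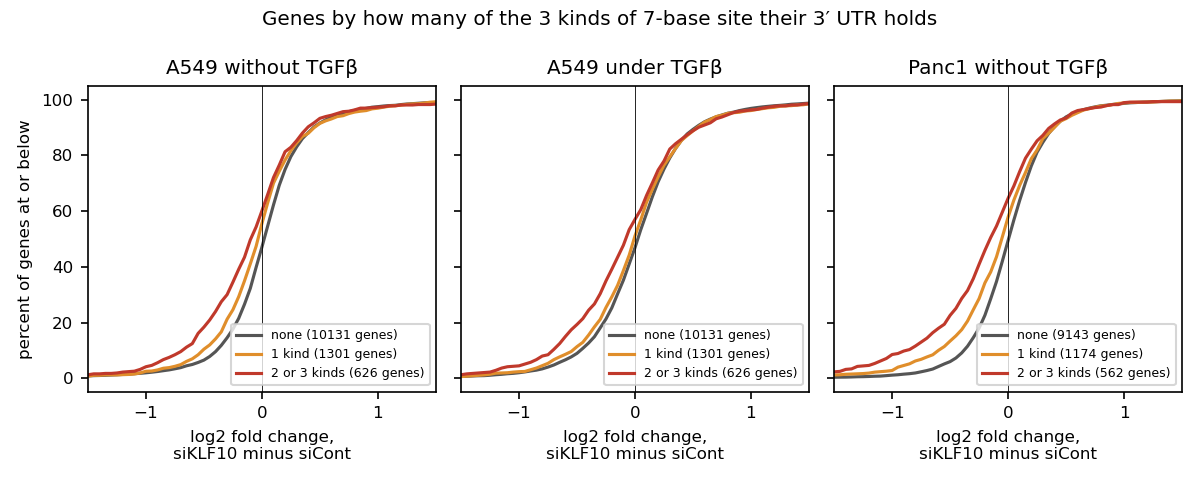
Cumulative percent of genes (vertical axis) at or below each log2 fold change, siKLF10 minus siCont (horizontal axis), for genes whose 3′ UTR holds none, 1, or 2 or 3 of the kinds of site, in A549 without TGFβ, A549 under TGFβ and Panc1 without TGFβ. The curve of the 626 A549 genes with 2 or 3 kinds lies left of that of the 10131 genes with none, with medians of −0.10 and 0.02, and the curves come together at the upper right; Panc1 is the line the sites were chosen in.

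Promoter sequence was described in the same way. RefSeq promoter windows, which span the start of a transcript and lie mostly before it (GRCh38.p14), matched 10842 of the genes tested, with 15922 windows because some genes have several starts. GGGCGG, a GC box bound by SP and KLF proteins, was present on either strand in 64.6% of all these windows, in 68.4% for genes called higher, 61.7% for genes called lower, 61.4% for genes higher at least 2-fold and 44.3% for genes lower at least 2-fold, against 45.0% of all 35116 windows in the table. CCACCC, the core of a CACCC box, was present in 38.5%, 40.0%, 37.2%, 44.7% and 36.4% in the same order, against 34.3%. The windows of the genes lower at least 2-fold were also less GC-rich, with a median of 57.7% against 64.7%. A match describes letters in a window and shows neither binding nor a cause.

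The authors' deposited table for A549 siKLF10 against control lists 26504 rows. It calls 2292 of them at an adjusted p under 0.05, 1122 with a fold change above 1 and 1170 below 1. Over 12745 genes in both, the log2 of the fold change in the authors' deposited table correlated with the edgeR values at r = 0.846. The 1833 genes called in both are 87.8% of the authors' calls among the genes tested here and 72.1% of the edgeR calls found in the authors' deposited table.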

How the data were processed

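RNA was sequenced from 4 A549 libraries without TGFβ, 2 a group, and 16 others of the series. The deposited tables hold read counts per gene, which the authors made, per the submitters' processing notes, with TopHat, Bowtie2 and HTSeq 0.6.0 on hg19; the role of each step and the strand setting are not given in the sources used here. HTSeq's 5 summary lines were left out; reads in no feature were 59.5% to 60.1% and ambiguous reads 0.358% to 0.374%. The authors' deposited comparison table gives a fold change as a ratio, and p-values; its fold change was read as siKLF10 over control, which the table itself does not state.

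edgeR 4.0.16 (R 4.3.3) was fitted to the 8 A549 libraries (TMM scaling, filterByExpr with a minimum count of 10, robust quasi-likelihood, 4 residual degrees of freedom), to 12 Panc1 libraries, and to all 20 for the difference between lines. Genes with a Benjamini-Hochberg adjusted p under 0.05 were called. Each SE was worked back from the quasi-likelihood test, as the absolute log2 fold change over the square root of the F statistic. It is a poor guide for genes with few counts. The text names KLF10, 8 further fixed genes, and the 15 largest falls and 15 largest rises. These falls and rises were taken among called genes averaging at least 5 CPM whose groups did not overlap. The text also names the leading members of each list by adjusted p, and up to 5 genes each way for each difference. HNF4A and the genes shown for 3′ UTR sites were chosen after their values were seen. The members, lists and rules were chosen with earlier results of these data known. Alternatives were DESeq2 1.42.0, other scalings and filters, and leaving out each library. The fits were tested on simulated data. No source used here says that the letters A and B pair libraries, so no block was fitted outside the alternatives. Some genes are not reported here.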

Additional observations from a re-analysis of the deposited data

Results flagged for a closer look

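These effects of siKLF10 differed with and without TGFβ, or between A549 and Panc1, by the test of the difference itself (edgeR, Benjamini-Hochberg adjusted over all genes). Values are log2 differences ± SE, and no explanation was weighed.

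Without TGFβ minus under TGFβ, CFI differed by −3.28 ± 0.327. Several genes below stood at low levels under TGFβ, so their fitted differences are neither sizes nor bounds. In the TGFb libraries ASGR1 stood at 0.30 and 0.89 CPM and SLC23A1 at 0.70 and 1.78 CPM. In siKLF10+TGFb GGT5 stood at 0.30 and 0.16 CPM and SGSM1 at 0.20 and 0.27 CPM. ASGR1, a hepatocyte receptor, differed by −2.61 ± 0.553, a call lost without TGFb A (adjusted p = 0.11). SLC23A1 differed by −2.36 ± 0.512, also lost without TGFb A (adjusted p = 0.0982). SDC2, a syndecan, differed by −2.26 ± 0.224 and FN1 by −0.92 ± 0.119. In the other direction GGT5 differed by 2.36 ± 0.55, lost without TGFb B (adjusted p = 0.0901) or siKLF10+TGFb B (adjusted p = 0.117). SGSM1 differed by 2.34 ± 0.591, a call that was absent with DESeq2 (adjusted p = 0.0754) and on leaving out siCont A, TGFb B or siKLF10 A (adjusted p = 0.0536, 0.145 and 0.0741). H19 differed by 2.02 ± 0.365 and SLC4A8 by 1.60 ± 0.309. FA2H, a fatty acid hydroxylase, differed by 1.68 ± 0.4, lost without TGFb A (adjusted p = 0.264) or siKLF10+TGFb B (adjusted p = 0.0656).

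A549 minus Panc1, C5 differed by −3.65 ± 0.179 and KLF10 by 0.683 ± 0.0996. VIM differed by 0.852 ± 0.111, ZEB1 by 0.454 ± 0.141 and FN1 by −0.539 ± 0.148. FCGBP differed by −2.98 ± 0.418, with 44 Panc1 counts in siCont and 77 in siKLF10.

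The other differences rest on few Panc1 counts, so their fitted sizes are neither sizes nor bounds. BAAT differed by −2.96 ± 0.801, with 7 counts in Panc1 siCont and 9 in Panc1 siKLF10, and was lost without Panc1 siKLF10 B (adjusted p = 0.123). CPLX2 differed by −2.99 ± 0.757 on 1 and 11 counts, lost with DESeq2 (adjusted p = 0.0507) and without Panc1 siCont A or C (adjusted p = 0.0721 and 0.0873). SERPINA6 differed by −3.27 ± 1.12 on 1 and 6 counts, lost with DESeq2 (adjusted p = 0.0564) and without any 1 of 7 libraries. ADD2 differed by 7.04 ± 1.48 (50 and 0 counts), NEFL by 6.64 ± 1.12 (24 and 0), NLRP2 by 6.04 ± 0.72 (88 and 1), KCNK1 by 5.93 ± 1.09 (20 and 0) and VANGL2 by 5.54 ± 1.38 (8 and 0). The call of VANGL2 was lost without Panc1 siCont C (adjusted p = 0.0521).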

How the results depend on the processing

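In A549 without TGFβ 2758 genes were called. DESeq2 called 1673, and leaving out 1 of the 4 libraries gave 1326 (siCont B) to 1638 (siKLF10 B). The other settings gave 2660 to 3036, and 3916 with the 4 libraries fitted alone, all within 1.5 times of it; these counts include 2759 with DESeq2's size factors. Under TGFβ 3996 genes were called against 2641 with DESeq2, and 2237 to 5409 with 1 library left out, a set of fits added after the data were seen. The difference with and without TGFβ had 916 genes, 543 with DESeq2 and 379 to 2685 with 1 library left out. The difference between lines had 2597 genes, and 1570 to 2512 with 1 library left out. No source says that the letters A and B pair libraries; deviations of same-lettered libraries correlated at 0.249 between siCont and siKLF10 and at −0.0288 to 0.249 over 6 pairs of groups. With the replicate block 2973 genes were called without TGFβ, 4235 under it, 1026 for their difference, 4638 in Panc1 and 2613 for the line difference. Of the single-gene values, 823 kept direction and side of the threshold, 33 lost the call and 0 reversed; the causes were not tested. Few counts limit genes near the floor of 3.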
